A study of Mus musculus with 41 samples.

Results

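Genes of the bone morphogenetic protein (BMP) pathway were followed through 2 RNA assays and a map of RHOX10 binding in the mouse. The material was testis cells sorted for a reporter and cultured germline stem cells. The 10 genes were the ligands Bmp2 and Bmp4, the receptors Bmpr1a and Bmpr2, the secreted antagonist Nog, and the SMAD target genes Id1, Id2, Id3, Smad6 and Smad7. They were picked by name out of the 55536 gene identifiers in each count table, and all 10 had a row in both tables. Bmp2 entered because of its difference between vectors averaged over the induced times of iSLAM-seq, and the others as its pathway partners, so that contrast and each induced time within it are described here without a test.

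BMPs are secreted dimers that bring together type I receptors such as BMPR1A and the type II receptor BMPR2. The type II receptor phosphorylates the type I receptor, which phosphorylates SMAD1, SMAD5 and SMAD9. These enter the nucleus with SMAD4 and switch on target genes, among them the Id genes, whose products block basic helix-loop-helix factors, and Smad6 and Smad7, whose products inhibit the receptors in a feedback loop. BMP4 is known for its part in the specification of primordial germ cells and in the differentiation of spermatogonia. RHOX10 is a homeobox transcription factor encoded on the X chromosome.

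RNA-seq used C57BL/6 testis cells that carried an OCT4-eGFP transgene (green fluorescent protein under the control of Oct4, also called Pou5f1) and were sorted for eGFP. Of these libraries 4 were labelled wild-type and 4 Rhox10-null, each from the pooled testes of 3 animals, and their age is not given in the sources used here. iSLAM-seq, which sequences the 3′ ends of RNA after a factor has been switched on, used cultured germline stem (GS) cells of neonatal C57BL/6 testes. Its reads can carry the T-to-C conversions that mark newly made RNA. Whether all reads or only converted reads were counted is not given in the sources used here. All 24 iSLAM-seq libraries came from cells in which an shRNA lentivirus had lowered endogenous Rhox10 and a GFP sort had been made. A second lentivirus added either Rhox10-ERT2-mCherry, a fusion that responds to 4-hydroxytamoxifen (libraries called Rhox10 below), or the empty ERT2-mCherry vector (Ctrl), with 2 libraries per vector at each of 0, 0.5, 1, 2, 4 and 8 h. The 2 vectors were thus carried by separate transduced cells, and vector and cell line cannot be told apart. CUT&Tag maps where an antibody finds its target on DNA, and was made with 3 libraries each of HA-tagged Rhox10, IgG and empty vector in GS cells with the same knockdown.

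RNA-seq libraries held 6602089 to 8278887 counts, of which Gm42418 alone took 58.0% to 59.4% in the wild-type and 51.0% to 52.7% in the Rhox10-null libraries. iSLAM-seq libraries held 9419615 to 12645845 counts. Chi-square per degree of freedom between replicates, near 1 for counting noise alone, differed within RNA-seq. It was 1.22 to 1.63 among wild-type replicates 1 to 3 and 1.37 to 1.54 among null replicates 1 to 3. Pairs with replicate 4 had 1.72 to 2.71 in wild-type and 4.02 to 4.49 in null libraries. Whether the 4 libraries of a genotype are equally independent was not tested. Rhox10 stood at 34.0 to 46.7 CPM (read counts scaled to the size of the library) in the 12 Rhox10 libraries and at 0.202 to 2.42 CPM in the 12 Ctrl libraries. In RNA-seq it had a mean of 0.810 CPM in wild-type and 0.920 CPM in Rhox10-null libraries (two-sided exact permutation p = 0.657 from 70 arrangements), so these counts do not check the genotype labels, and each direction below is that of the labels. Ctrl 0.5 h replicate 2 stood apart from the other iSLAM-seq libraries. Its log2 CPM correlated at 0.957 to 0.961 with the Ctrl libraries at 0 and 1 h, against 0.987 to 0.989 for replicate 1. Where it moves a result named below, the value without it is given as well. All times share 1 estimate of the spread, so this library also enters each SE at the other times, which is given only with it.

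Bmp2 (ENSMUSG00000027358, GRCm38 chromosome 2, 133552159 to 133562885, plus strand) was the member with the largest separation between vectors. In Ctrl libraries it stood at 54.5 and 65.9 (0 h), 52.6 and 57.4 (0.5 h), 62.5 and 63.0 (1 h), 64.9 and 68.9 (2 h), 65.8 and 72.3 (4 h) and 59.4 and 70.3 (8 h) (CPM scaled by TMM). In Rhox10 libraries the values were 167 and 174 (0 h), 183 and 178 (0.5 h), 204 and 192 (1 h), 266 and 284 (2 h), 421 and 424 (4 h) and 259.9 and 257 (8 h). Every Rhox10 library lay above every Ctrl library, the Ctrl values kept within 52.6 to 72.3 CPM, and the Rhox10 values were highest at 4 h. Of all genes tested, 2.79% had all 12 Rhox10 libraries above all 12 Ctrl libraries and 2.47% had them all below. At a single time only 2 libraries are set against 2, where vectors can easily lie apart. The share of all genes apart at a single time was not counted, so such statements below only describe the values. The separation was present before induction: at 0 h Bmp2 was 2.83-fold higher with the fusion (log2 difference 1.499, standard error (SE) 0.094). Later log2 differences were 1.71 (SE 0.095) at 0.5 h, 1.66 (SE 0.0938) at 1 h, 2.04 (SE 0.0942) at 2 h, 2.61 (SE 0.0957) at 4 h and 2.00 (SE 0.0946) at 8 h, which at 4 h is a 6.12-fold difference. Among 12060 genes with a mean of at least 5 CPM, Bmp2 ranked 8 by its log2 difference averaged over the induced times. It was picked on that difference, so a high rank was set by the choice.

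**Figure D1:**
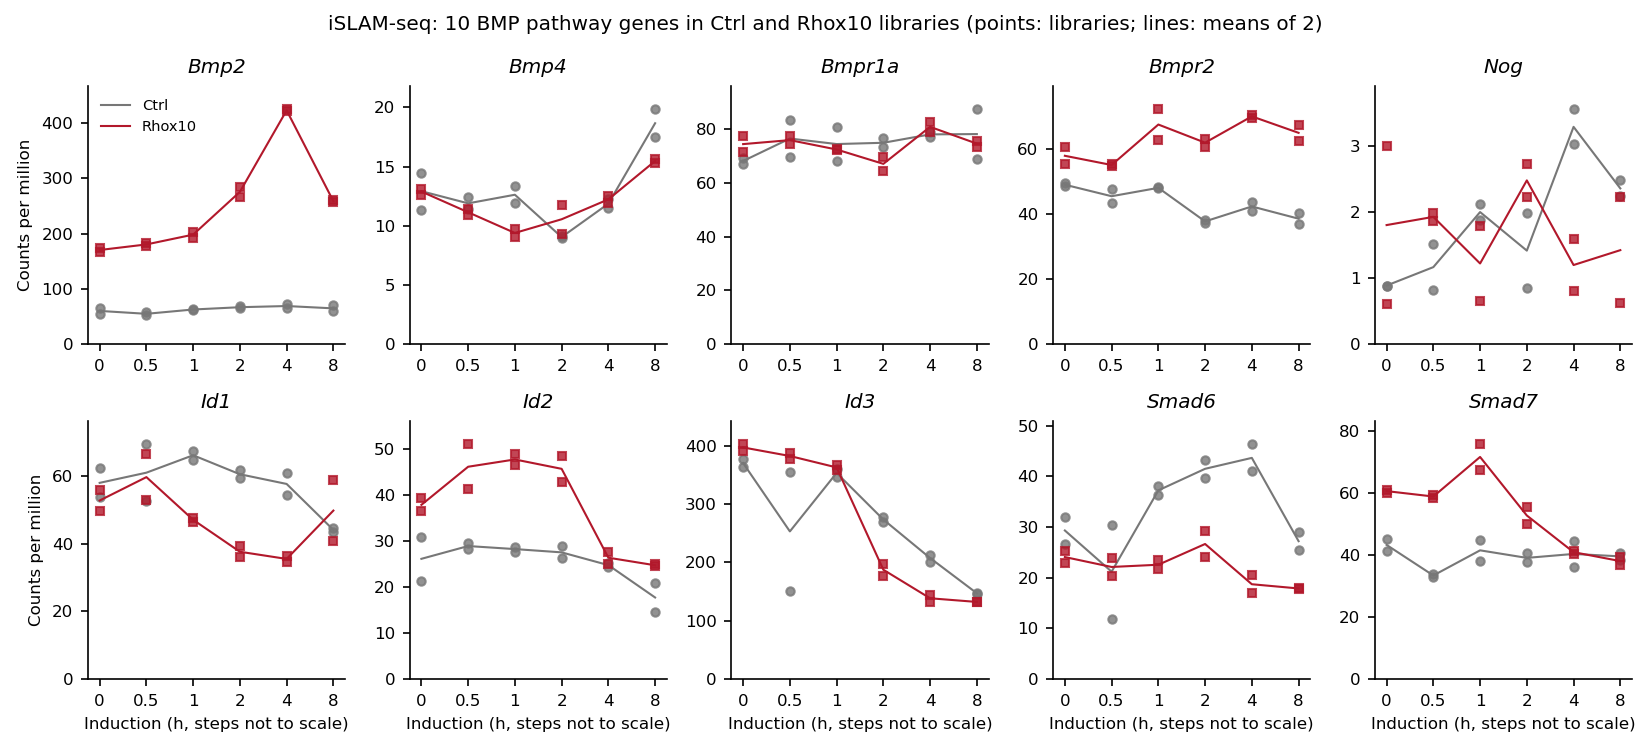
CPM of the 10 genes (y axes, from 0) against hours of induction (x axes, steps not to scale) in iSLAM-seq, with a point for each library and lines through the means of the 2 libraries per vector and time. Bmp2 and Bmpr2 are the genes in which all 12 Rhox10 libraries (squares) lie above all 12 Ctrl libraries (circles), and the low Ctrl point of Id3 and Smad6 at 0.5 h is replicate 2.

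Bmp4 (ENSMUSG00000021835, chromosome 14, 46383520 to 46390669, minus strand), the other ligand, showed no such separation. Its 12 Ctrl libraries ran from 8.94 to 19.8 CPM with a median of 12.1, and its 12 Rhox10 libraries from 9.03 to 15.7 CPM with a median of 11.9. Its highest values in both vectors were at 8 h, with 19.8 and 17.5 CPM in Ctrl and 15.7 and 15.3 CPM in Rhox10. The exons of Bmp4 overlap those of Gm15217 on the opposite strand, and since the strand setting of the counting is not given in the sources used here, reads of the pair cannot be told apart.

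The type II receptor gene Bmpr2 (ENSMUSG00000067336, chromosome 1, 59763400 to 59879014, plus strand) was the second member whose vectors did not overlap. Its Ctrl values were 48.6 and 49.6 (0 h), 43.4 and 47.7 (0.5 h), 48.0 and 48.2 (1 h), 37.3 and 38.2 (2 h), 41.1 and 43.7 (4 h) and 40.3 and 36.9 (8 h) CPM. Its Rhox10 values were 55.4 and 60.6 (0 h), 54.9 and 55.4 (0.5 h), 62.9 and 72.2 (1 h), 60.8 and 63.2 (2 h), 69.6 and 70.6 (4 h) and 62.5 and 67.5 (8 h) CPM. The Ctrl libraries at 0 and 1 h lay above those at 2, 4 and 8 h, while the Rhox10 libraries at 0 and 0.5 h lay below those at every later time. The log2 difference was 0.24 (SE 0.104) at 0 h and 0.75 (SE 0.106) at 8 h. The type I receptor gene Bmpr1a (ENSMUSG00000021796, chromosome 14, 34410734 to 34503341, minus strand) ranged over 66.9 to 87.3 CPM in Ctrl and 64.4 to 82.7 CPM in Rhox10 libraries, and its 6 log2 differences lay between -0.16 (SE 0.114) at 2 h and 0.13 (SE 0.114) at 0 h. Exons of Bmpr1a overlap Gm17110 on the opposite strand. Nog (ENSMUSG00000048616, chromosome 11, 89300638 to 89302332, minus strand), which encodes the BMP antagonist noggin, was near the detection limit, with 0.820 to 3.55 CPM in Ctrl and 0.607 to 3.00 CPM in Rhox10 libraries.

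The 3 Id genes did not move as 1 group. Id2 (ENSMUSG00000020644, chromosome 12, 25093799 to 25097140, minus strand) stood in Ctrl libraries at 21.4 and 30.8 (0 h), 28.3 and 29.5 (0.5 h), 27.7 and 28.8 (1 h), 26.2 and 28.8 (2 h), 25.1 and 24.4 (4 h) and 14.6 and 20.9 (8 h) CPM. Its Rhox10 values were 39.3 and 36.4 (0 h), 41.2 and 51.0 (0.5 h), 48.9 and 46.5 (1 h), 48.4 and 42.9 (2 h), 25.02 and 27.7 (4 h) and 24.5 and 24.96 (8 h) CPM. The vectors were apart up to 2 h, close at 4 h and apart again at 8 h, when both had their lowest values. The log2 differences were 0.54 (SE 0.165) at 0 h, 0.76 (SE 0.163) at 1 h, 0.09 (SE 0.169) at 4 h and 0.48 (SE 0.175) at 8 h.

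Id1 (ENSMUSG00000042745, chromosome 2, 152736251 to 152737410, plus strand) lay the other way at 1 to 4 h. In Ctrl libraries it stood at 62.2 and 53.7 (0 h), 69.3 and 52.6 (0.5 h), 64.7 and 67.5 (1 h), 59.3 and 61.7 (2 h), 54.5 and 60.8 (4 h) and 43.4 and 44.8 (8 h) CPM. In Rhox10 libraries it stood at 55.7 and 49.8 (0 h), 52.9 and 66.4 (0.5 h), 46.5 and 47.5 (1 h), 39.2 and 36.0 (2 h), 36.4 and 34.6 (4 h) and 58.8 and 40.7 (8 h) CPM. At 1, 2 and 4 h both Rhox10 libraries were below both Ctrl libraries, and at 0 and 8 h the vectors overlapped. At 0.5 h they overlapped through Ctrl replicate 2 alone, and the log2 difference was -0.03 (SE 0.151) with it and -0.22 (SE 0.142) without it. The other log2 differences were -0.14 (SE 0.152) at 0 h, -0.49 (SE 0.152) at 1 h, -0.69 (SE 0.154) at 2 h, -0.70 (SE 0.155) at 4 h and 0.17 (SE 0.155) at 8 h.

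Id3 (ENSMUSG00000007872, chromosome 4, 136143497 to 136145755, plus strand) had lower values from 2 h on in both vectors. Its Ctrl values were 363 and 378 (0 h), 355 and 151 (0.5 h), 347 and 359.9 (1 h), 278 and 269 (2 h), 202 and 214 (4 h) and 148 and 146 (8 h) CPM, of which 151 CPM came from Ctrl 0.5 h replicate 2. Its Rhox10 values were 392 and 403 (0 h), 378 and 387 (0.5 h), 368 and 358 (1 h), 177 and 198 (2 h), 132 and 145 (4 h) and 132 and 133 (8 h) CPM. At 2, 4 and 8 h both Rhox10 libraries were below both Ctrl libraries. The log2 difference was 0.10 (SE 0.191) at 0 h, -0.55 (SE 0.193) at 2 h, -0.58 (SE 0.196) at 4 h and -0.15 (SE 0.197) at 8 h. Each of these SE takes in the spread of Ctrl 0.5 h replicate 2. At 0.5 h it was 0.60 (SE 0.192) with both Ctrl libraries and 0.11 (SE 0.0665) without replicate 2.

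The 2 inhibitory SMAD genes differed from each other. Smad7 (ENSMUSG00000025880, chromosome 18, 75367529 to 75395935, plus strand) stood in Ctrl libraries at 45.0 and 41.4 (0 h), 32.8 and 33.9 (0.5 h), 44.9 and 38.1 (1 h), 40.5 and 37.6 (2 h), 44.5 and 36.1 (4 h) and 40.7 and 38.3 (8 h) CPM. In Rhox10 libraries it stood at 60.1 and 61.0 (0 h), 59.3 and 58.3 (0.5 h), 67.5 and 75.6 (1 h), 50.0 and 55.4 (2 h), 41.4 and 40.4 (4 h) and 36.8 and 39.2 (8 h) CPM. Up to 2 h each Rhox10 library was above each Ctrl library, and at 4 and 8 h the vectors overlapped. The log2 differences were 0.49 (SE 0.119) at 0 h, 0.82 (SE 0.121) at 0.5 h, 0.79 (SE 0.119) at 1 h, 0.43 (SE 0.12) at 2 h, 0.02 (SE 0.121) at 4 h and -0.06 (SE 0.123) at 8 h.

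Smad6 (ENSMUSG00000036867, chromosome 9, 63953076 to 64022059, minus strand) lay lower with the fusion. Its Ctrl values were 32.0 and 26.6 (0 h), 30.5 and 11.9 (0.5 h), 38.1 and 36.3 (1 h), 39.7 and 43.2 (2 h), 46.3 and 40.9 (4 h) and 29.0 and 25.4 (8 h) CPM, with the low 11.9 CPM in Ctrl 0.5 h replicate 2. Its Rhox10 values were 25.2 and 23.0 (0 h), 20.4 and 23.8 (0.5 h), 23.4 and 21.7 (1 h), 29.2 and 24.1 (2 h), 20.5 and 16.9 (4 h) and 18.0 and 17.7 (8 h) CPM. Both Rhox10 libraries were below both Ctrl libraries at 0, 1, 2, 4 and 8 h, although at 0 h the difference was little larger than its SE. The log2 differences were -0.28 (SE 0.24) at 0 h, -0.72 (SE 0.238) at 1 h, -0.64 (SE 0.235) at 2 h, -1.22 (SE 0.241) at 4 h and -0.61 (SE 0.248) at 8 h. As for Id3, each SE takes in the spread of Ctrl 0.5 h replicate 2. At 0.5 h the value was 0.06 (SE 0.246) with both Ctrl libraries and -0.46 (SE 0.182) without replicate 2.

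**Figure D2:**
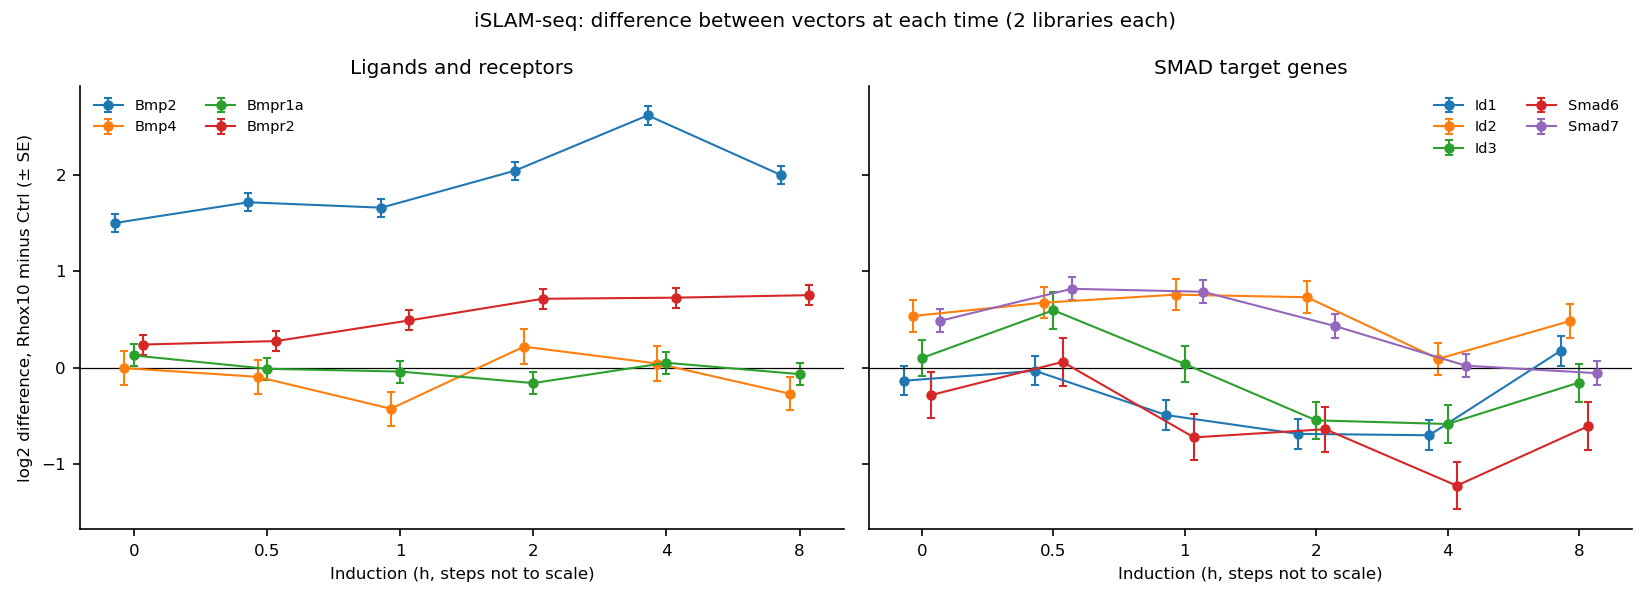
The log2 difference of Rhox10 minus Ctrl (y axis, points with SE bars) at each time (x axis, steps not to scale) for ligands and receptors (left) and SMAD target genes (right), from 2 libraries per vector and time. Bmp2 lies between 1.499 and 2.61 at all 6 times, Smad7 goes from 0.49 at 0 h to -0.06 at 8 h, and Id1, Id3 and Smad6 are below 0 at 2 and 4 h.

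At 0 h, when the vectors were compared before induction, 3 of the 10 genes passed the test and all 3 were higher in Rhox10 libraries: Bmp2, Id2 and Smad7. The test was the edgeR quasi-likelihood test with Benjamini-Hochberg adjustment over all 20642 genes, with an adjusted p under 0.05 as the threshold, and it called 10.9% of all genes (6.56% higher and 4.32% lower). Bmp2 had an edgeR adjusted p of 2.41e-10, Smad7 (1.40-fold) of 0.00919 and Id2 (1.45-fold) of 0.0387. The 0 h libraries took no part in the pick of Bmp2. They carry the same 2 vectors as the induced libraries, so its call at 0 h is not independent of that pick. The median log2 difference of the 10 genes was 0.18, beside 0.004 for all genes. Bmp2 passed without any 1 of the 4 libraries compared. Id2 did not pass without Ctrl 0 h replicate 1 (edgeR adjusted p = 0.425), Rhox10 0 h replicate 1 (0.195) or replicate 2 (0.097), nor with the 4 libraries at 0 h fitted alone (0.0576), and Smad7 did not without Ctrl 0 h replicate 2 (0.121), Rhox10 0 h replicate 1 (0.0535) or replicate 2 (0.0666).

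Whether the difference between vectors changed from 0 h was tested with an F-test over the 5 later times for the 9 genes other than Bmp2. Only Smad7 passed with all 24 libraries (edgeR adjusted p = 0.00541), in a test that called 2.39% of all genes. Without Ctrl 0.5 h replicate 2, the library that stood apart, 5 of the 9 passed and the share of all genes called was 7.01%. The added 4 were Id3 (edgeR adjusted p = 0.0834 with it and 6.41e-14 without it), Id1 (0.0627 and 0.000265), Smad6 (0.324 and 0.027) and Bmpr2 (0.0991 and 0.0461). The same 5 genes passed without all 4 libraries at 0.5 h, an alternative chosen after seeing the data, where 7.35% of all genes were called. Leaving out Ctrl 0.5 h replicate 1 instead makes the library that stood apart the only Ctrl library at 0.5 h. That setting therefore cannot show whether these changes hold. Bmpr1a, Bmp4, Nog and Id2 had edgeR adjusted p-values of 0.872, 0.632, 0.458 and 0.51 with all libraries.

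Within a vector, Id3 fell between 0 and 8 h with and without the fusion. In Ctrl it fell by 1.33 on the log2 scale (SE 0.196, edgeR adjusted p = 0.000122), a level 2.52-fold lower, and was the only one of the 10 genes to pass, while 6.52% of all genes did (3.84% higher and 2.68% lower). In Rhox10 libraries it fell by 1.59 (SE 0.198, edgeR adjusted p = 6.86e-06), where 7.18% of all genes passed (3.12% higher and 4.06% lower). Smad7 fell by 0.67 (SE 0.121, edgeR adjusted p = 0.000753) and Id2 by 0.61 (SE 0.167, edgeR adjusted p = 0.0247) in Rhox10 libraries. These made 3 of the 9 genes tested there, all of them SMAD targets and all lower. Id2 in Ctrl libraries had a log2 difference of -0.56 (SE 0.173, edgeR adjusted p = 0.0537), and Smad7 one of -0.13 (SE 0.121, edgeR adjusted p = 0.615). The Id2 call in Rhox10 libraries was lost without any 1 of the 4 libraries compared (edgeR adjusted p 0.0755 to 0.16). Without the 4 libraries at 0.5 h the Ctrl comparison called 4 of the 10 genes, all lower (Bmpr2, Id1, Id2 and Id3), and 13.5% of all genes. Beside these falls, 3 of 7 stromal and peritubular markers were lower at 8 h in Ctrl and 4 of 7 in Rhox10 libraries, and their part was not tested. For Bmp2 the level at 8 h against 0 h differed by 0.11 (SE 0.0953) in Ctrl and, as a description, by 0.60 (SE 0.0898) in Rhox10 libraries.

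Marker genes of several cell types differed between vectors and times beside these genes in iSLAM-seq. Without Ctrl 0.5 h replicate 2, germ cell markers summed to 1935 to 2262 CPM in Ctrl and 1650 to 1945 CPM in Rhox10 libraries, and to 1476 CPM in that library. At each of the other 5 times both Rhox10 sums lay below both Ctrl sums, and at 0 h 3 of 8 germ cell markers were lower. Stromal and peritubular markers summed to 1104 to 1604 CPM in Ctrl (982 in that library) and 1172 to 2003 CPM in Rhox10 libraries, with both Rhox10 sums above both Ctrl sums at those 5 times. Sertoli markers summed to 289 and 292 CPM in Ctrl at 0 h and to 492 and 467 CPM at 8 h. In Rhox10 libraries they summed to 341 and 319 CPM at 0 h, 614 and 630 CPM at 2 h and 303 and 332 CPM at 8 h. Sox9 was the only 1 of the 5 Sertoli markers tested to pass the F-test of the change from 0 h (edgeR adjusted p = 1.3e-08). Amh was at 0 in every library. Endothelial markers summed to 31.6 to 47.8 CPM in Ctrl and 20.2 to 33.0 CPM in Rhox10 libraries. Leydig markers summed to at most 17.1 CPM with Hsd3b1, Insl3 and Lhcgr at 0. The part of these cell types in the values of the BMP genes was not tested.

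In the sorted testis cells the ligands and Nog were barely detected, the receptors and Smad7 were the most abundant members, and differences between genotypes were small. Per kilobase of exon, wild-type libraries had mean levels of 7.35 CPM per kb for Smad7, 6.04 for Bmpr1a, 3.96 for Bmpr2, 3.64 for Id1, 3.49 for Id3, 2.01 for Id2, 1.98 for Smad6, 0.470 for Bmp4, 0.122 for Bmp2 and 0.0665 for Nog. In that order Bmpr2 and Id1, Id1 and Id3, Id2 and Smad6, Bmp4 and Bmp2, and Bmp2 and Nog overlapped between neighbours. Only 7 of the 10 genes passed the filter on low counts. Bmp2 had 0.451, 0.307, 0.848 and 0.136 CPM in the wild-type and 0.874, 0.795, 0.961 and 0.673 CPM in the Rhox10-null libraries, from 1 to 5 and 5 to 8 counts. These means of 0.435 and 0.826 CPM did not separate the genotypes (exact permutation test, two-sided, p = 0.0857, adjusted over 4 tests 0.343, smallest possible 0.0286). Bmp4 had means of 1.06 and 1.48 CPM (exact permutation p = 0.229) and Nog of 0.113 and 0.155 CPM, with overlapping groups.

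Bmpr2 and Id2 were higher and Bmpr1a lower in the Rhox10-null libraries, 3 of the 7 genes tested, in a comparison in which 37.5% of all 13538 genes passed (18.6% higher and 18.9% lower). Bmpr2 had 74.6, 66.7, 71.2 and 72.6 CPM in the wild-type and 87.3, 82.6, 81.0 and 73.9 CPM in the Rhox10-null libraries. These groups overlapped and gave a log2 fold change of 0.19 (SE 0.0541, edgeR adjusted p = 0.00493). Id2 had 5.41, 4.76, 4.24 and 5.16 CPM against 6.12, 6.62, 7.21 and 6.86 CPM. Here every Rhox10-null library was above every wild-type library, as for 15.8% of all genes, with a log2 fold change of 0.44 (SE 0.15, edgeR adjusted p = 0.0181). Bmpr1a had 36.7, 37.4, 38.5 and 40.8 CPM against 33.2, 32.8, 35.7 and 34.6 CPM. Every Rhox10-null library was below every wild-type library, as for 16.4% of all genes, with a log2 fold change of -0.17 (SE 0.0619, edgeR adjusted p = 0.0246).

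The other 4 genes did not pass. Id1 had 3.91, 4.45, 4.07 and 4.48 CPM in wild-type and 4.59, 5.30, 4.45 and 4.31 CPM in Rhox10-null libraries. Id3 had 7.07, 5.83, 5.42 and 6.65 CPM against 5.13, 6.36, 6.25 and 6.19 CPM. Their log2 fold changes were 0.13 (SE 0.171) and -0.08 (SE 0.147). Smad6 had 6.32, 7.06, 5.26 and 6.78 CPM against 8.41, 5.16, 6.01 and 6.19 CPM, and Smad7 34.7, 36.2, 30.7 and 31.3 CPM against 36.9, 31.5, 35.1 and 36.2 CPM. These gave log2 fold changes of 0.03 (SE 0.153) and 0.07 (SE 0.0671), and in all 4 genes the genotypes overlapped.

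**Figure D3:**
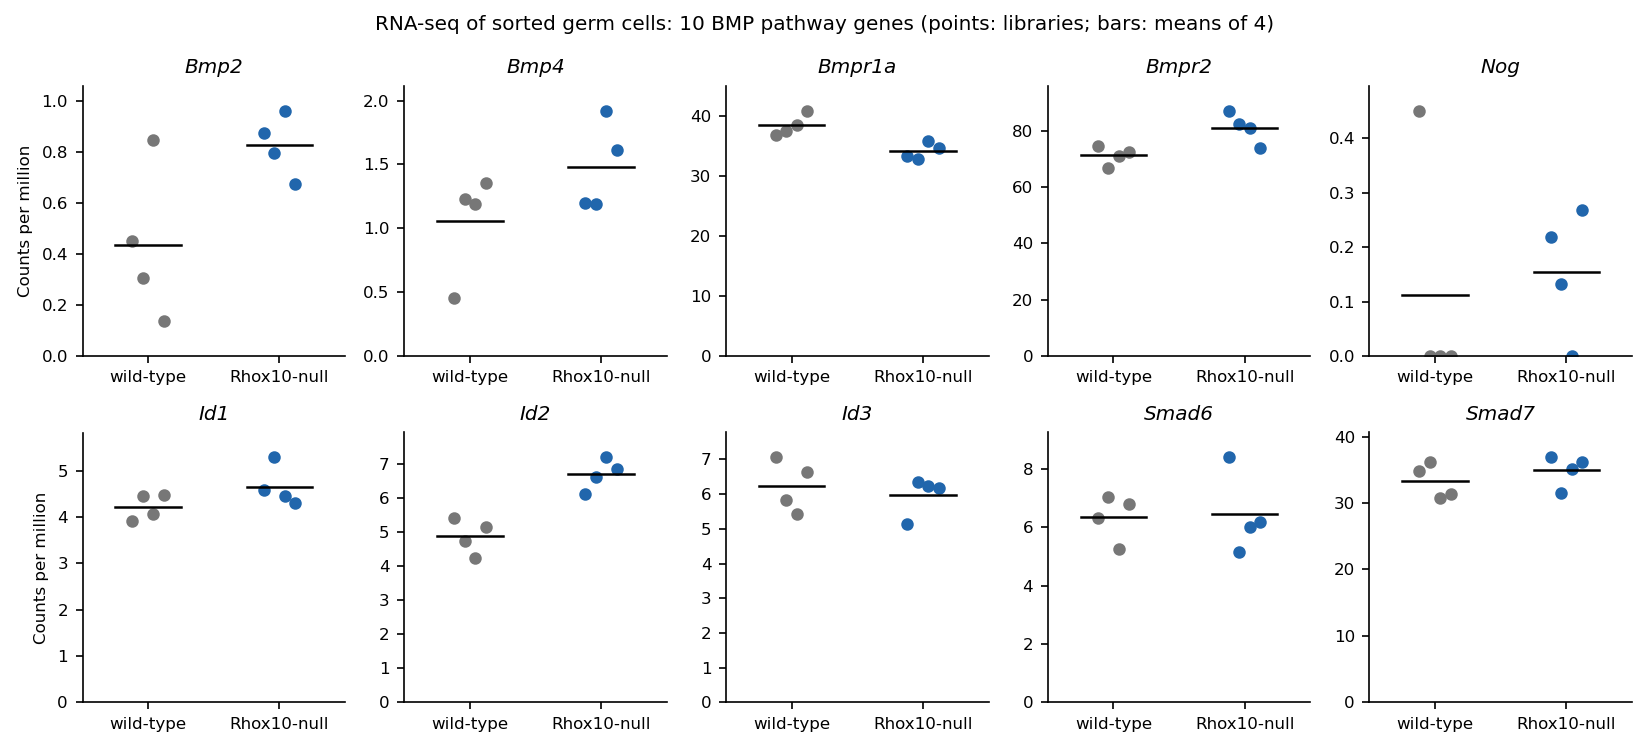
CPM of the 10 genes (y axes, from 0) in RNA-seq of sorted testis cells, with a point for each library and a bar at the mean of the 4 libraries per genotype. Id2 and Bmpr1a are the genes in which the 2 genotypes do not overlap, and Bmp2 and Nog lie below 1 CPM in every library.

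The RNA-seq calls depended on the tool and the scaling. DESeq2 called 0 of the 7 genes at an adjusted p under 0.05 and 2 at an unadjusted p under 0.05, with adjusted p-values of 0.0531 for Bmpr2, 0.105 for Id2 and 0.153 for Bmpr1a. The typical gene (median log2 fold change over those tested) lay at 0.003 as reported, at 0.35 with library totals and at 0.75 with factors from germline genes. With library totals Bmpr1a turned to 0.175 and Id3 to 0.269, and with germline factors to 0.574 and 0.668. A change of scaling shifts all genes by about the same amount, so these values are read against their medians. Of these calls Bmpr2 passed without any 1 library, Bmpr1a was lost without null replicate 1 (edgeR adjusted p = 0.0645), null replicate 2 (0.0645) or wild-type replicate 4 (0.0898) and with no filter on low counts (0.0706), and Id2 without null replicate 3 (0.0532) or wild-type replicate 3 (0.0702).

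Markers of several cell types moved with the genotype labels beside these genes. The summed CPM of 8 germ cell markers was 195 to 207 in wild-type and 99.4 to 109 in Rhox10-null libraries, and 6 of the 7 tested were lower. Pou5f1, whose reporter defined the sort, was the exception, with a log2 fold change of -0.07 (SE 0.185). All 7 stromal and peritubular markers were higher, with sums of 441 to 466 against 701 to 741 CPM. Endothelial markers summed to 26.5 to 31.9 against 39.0 to 42.5 CPM with 4 of 5 tested higher, Leydig markers to 34.2 to 36.0 against 46.3 to 56.1 CPM with 4 of 5 higher, and macrophage markers to 15.9 to 18.9 against 20.3 to 26.0 CPM with 3 of 6 higher. Sertoli markers summed to 579 to 628 against 641 to 662 CPM with 2 of 8 higher. In both genotypes the Sertoli sums and the stromal and peritubular sums exceeded the germ cell sums. Sums over different genes do not give shares of cells, but the levels of the BMP genes are those of all sorted cells together. Erythroid markers summed to 1.36 to 4.07 against 78.3 to 86.8 CPM, all 6 tested were higher, and Slc4a1 was at 0 in every wild-type library. The part of these cell types in the values of the BMP genes was not tested, and in bulk RNA fewer cells of a type and less RNA per cell cannot be told apart.

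**Figure D4:**
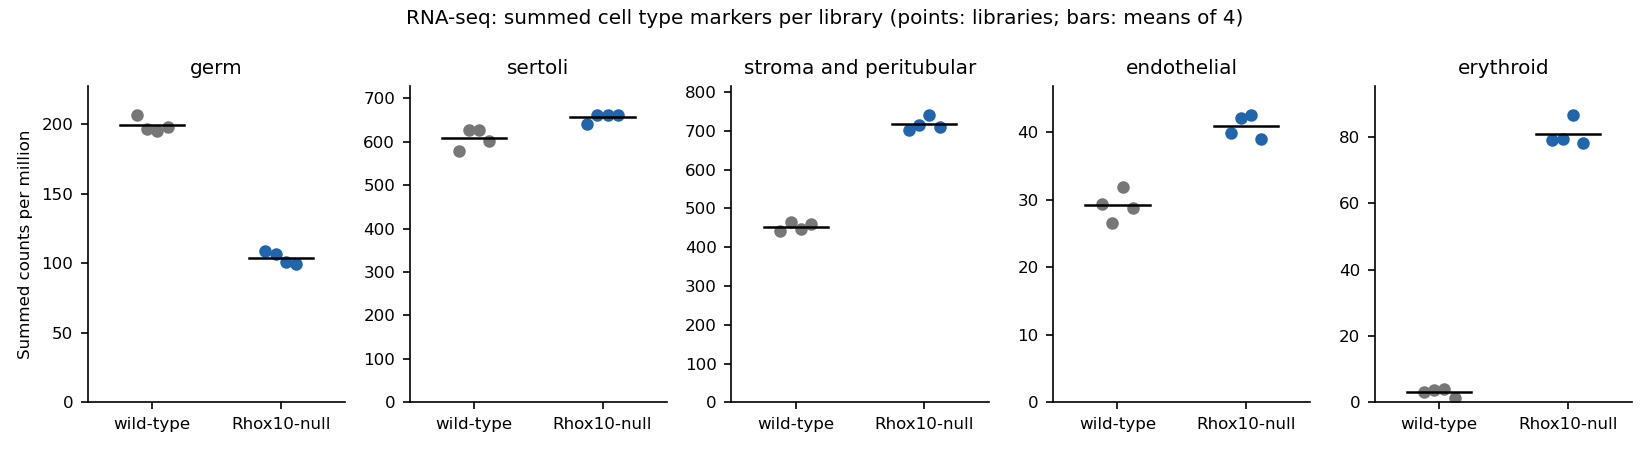
Summed CPM of marker genes (y axes, from 0) for 5 cell types in the RNA-seq libraries, with a point for each library and a bar at the mean of 4. Germ cell markers lie lower in the Rhox10-null libraries (99.4 to 109 against 195 to 207 CPM), and stromal, endothelial and erythroid markers lie higher.

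Beyond the 10 genes, the wider pathway was read from a list of 48 genes in 5 classes. In iSLAM-seq at 0 h, 5 of the 38 tested were higher and 2 lower with the fusion, with a median log2 difference of 0.14 beside 0.004 for all genes, of which 6.56% were higher and 4.32% lower. The 5 higher genes were all secreted BMP antagonists or modulators, a class in which 9 of 11 genes were tested. Grem1, which encodes gremlin, stood at 254 and 261 CPM in the Ctrl and 434 and 451 CPM in the Rhox10 libraries at 0 h (log2 difference 0.78, SE 0.0684, edgeR adjusted p = 4.15e-08). Bmper stood at 7.73 and 10.5 CPM in Ctrl and 17.8 and 18.3 CPM in Rhox10 libraries (log2 difference 0.99, SE 0.236, edgeR adjusted p = 0.00768). Nbl1, Twsg1 and Fstl1 had log2 differences of 0.58, 0.52 and 0.48, with an edgeR adjusted p of 0.0212 for Nbl1 and 0.0428 for Twsg1. Whether these calls of wider genes at 0 h hold with 1 library left out was not examined. The type II receptor gene Acvr2b and the SMAD corepressor gene Ski were lower, by -0.35 (SE 0.1) and -0.30 (SE 0.0702). At 0 h, 4 of 7 stromal and peritubular markers were also higher with the fusion and 1 lower.

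The difference between vectors changed from 0 h for 4 of the 38 genes, and at 8 h against 0 h it had moved down in all 4, where 2.39% of all genes passed. Without Ctrl 0.5 h replicate 2, 10 of 39 passed, 7 of them lower at 8 h, where 7.01% of all genes passed, and these 4 were among them. The change at 8 h was -1.05 for Msx1, a homeobox target of BMP signalling, and -0.60 for the corepressor gene Skil. It was -0.52 for Tbx3 and -0.48 for Fstl1. In the F-test over the 5 later times their edgeR adjusted p-values were 0.0335, 0.000239, 0.0081 and 0.00141 in that order. The change at 8 h alone was not tested. In Ctrl libraries between 0 and 8 h 7 of the 38 passed (6.52% of all genes). Msx1 rose by 0.72, Tbx3 by 0.61, Grem1 by 0.46 and Skil by 0.36, and Smad1 fell by 0.62, Rgma by 0.52 and Fstl1 by 0.29. In Rhox10 libraries 2 of the 38 passed (7.18% of all genes), and both were lower: Fstl1 fell by 0.77 and Skil by 0.24.

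In RNA-seq, 28 of the 48 genes were tested, 6 were higher and 3 lower in the Rhox10-null libraries, and the median log2 fold change was 0.11 beside 0.003 for all genes. The share called among all genes was 37.5% (18.6% higher and 18.9% lower), so these 9 calls are no more than that share. The higher genes were Bmper (0.65, SE 0.167), the type I receptor gene Acvrl1 (0.52, SE 0.0912), the co-receptor gene Rgma (0.51, SE 0.181), Skil (0.39, SE 0.0616), Fstl1 (0.36, SE 0.067) and Tob1 (0.30, SE 0.102). The lower genes were Gata2 (-1.09, SE 0.243), Id4 (-0.93, SE 0.166) and Ski (-0.39, SE 0.0558). Id4, the remaining gene of the Id family and a marker of spermatogonial stem cells, stood at 5.26 to 8.14 CPM in wild-type and 3.23 to 4.45 CPM in Rhox10-null libraries, while Id2 was higher and Id1 and Id3 did not pass. Acvrl1, which is best known from endothelium, stood at 12.6 to 16.7 CPM in wild-type and 19.0 to 22.7 CPM in Rhox10-null libraries. The marker sums above moved with these genes as well.

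**Figure D5:**
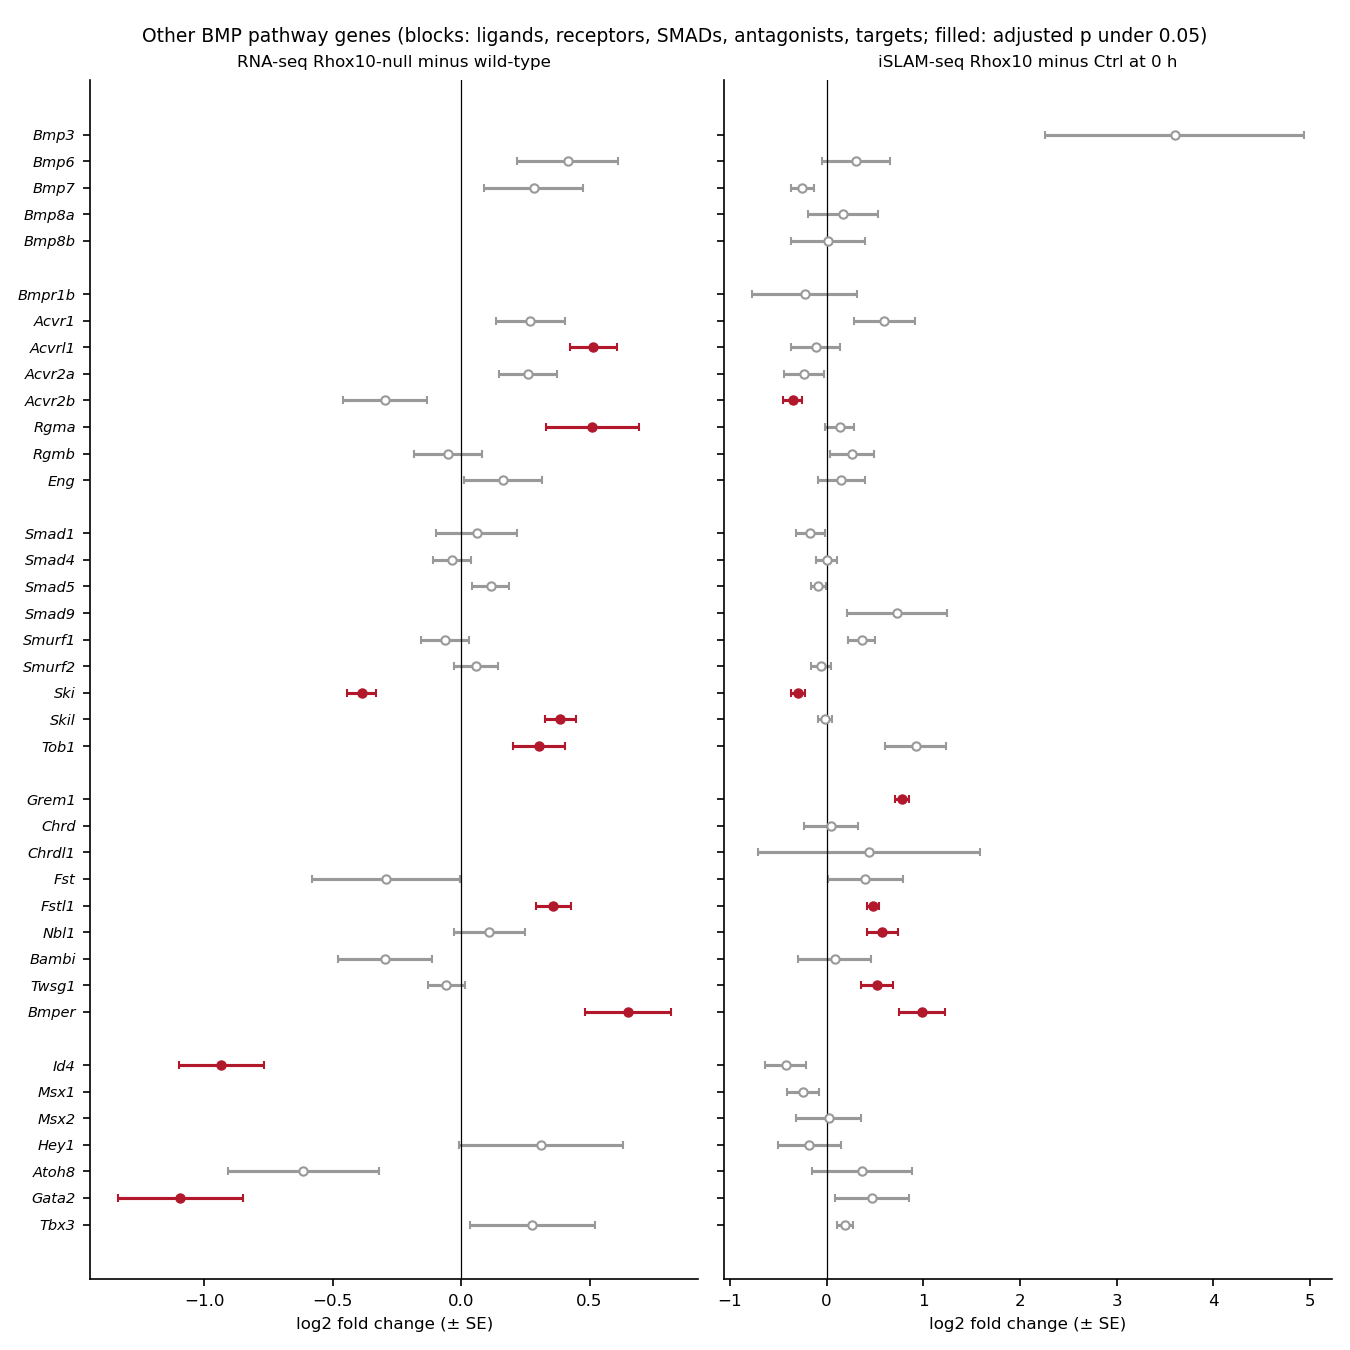
Log2 fold changes with SE bars (x axes) of the other BMP pathway genes (rows, in blocks of ligands, receptors, SMADs and their regulators, antagonists and targets) for RNA-seq, Rhox10-null minus wild-type (left), and iSLAM-seq at 0 h, Rhox10 minus Ctrl (right). Filled points have an edgeR adjusted p under 0.05, and at 0 h the 5 filled points above 0 all lie in the antagonist block.

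RHOX10 binding was read from the merged CUT&Tag peaks, of which 4380 of 5147 (85.1%) lay within 3 kb of a start site by the deposited distance. Smad7 was the only 1 of the 10 genes with a peak that close, while 19.8% of all genes tested in iSLAM-seq and 27.3% of those tested in RNA-seq had one. That peak was 761 bases long and lay at -572 bases from the start site, with a score of 163 where the median of all peaks was 128. A second Smad7 peak, with a score of 37.2, lay at -24172 bases. Bmp4 had a peak in an intron (chr14:46387191-46387871, score 139) at a deposited distance of 3138 bases, with its centre at -227 bases from an alternative Bmp4 start site of the GENCODE M21 annotation. Part of the peak overlaps an annotated Bmp4 exon, while the window printed below holds no Bmp4 exon and part of an exon of the antisense gene Gm15222. Id2 had an intergenic peak 12320 bases downstream of its start site (chr12:25083391-25084154, score 68.6). No peak was annotated to Bmp2, which differed most between vectors among the 10 genes, and the nearest peak centre was 672.4 kb from its start site. Distances for the remaining genes were 49.3 kb for Id1, 61.3 kb for Id3, 78.4 kb for Bmpr2, 170.4 kb for Bmpr1a, 231.5 kb for Smad6 and 241.5 kb for Nog.

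The DNA of the deposited peaks at Bmp4 and Id2 is shown because these are, beside Smad7, the sites annotated to these genes. The signal there was not compared with the IgG and empty-vector libraries. Each line holds the central 300 bases of the peak, read 5′ to 3′ on the plus strand of GRCm38 (chr14:46387382-46387681 and chr12:25083623-25083922), with matches to GTCTG or its reverse complement CAGAC, letters found in SMAD-binding elements, in capitals.
Bmp4 peak: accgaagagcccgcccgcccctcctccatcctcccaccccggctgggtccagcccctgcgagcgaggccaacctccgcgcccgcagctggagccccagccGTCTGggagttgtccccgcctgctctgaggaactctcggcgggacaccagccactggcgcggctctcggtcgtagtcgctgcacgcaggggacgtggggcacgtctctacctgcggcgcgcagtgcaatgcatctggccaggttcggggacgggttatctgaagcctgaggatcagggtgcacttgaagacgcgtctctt
Id2 peak: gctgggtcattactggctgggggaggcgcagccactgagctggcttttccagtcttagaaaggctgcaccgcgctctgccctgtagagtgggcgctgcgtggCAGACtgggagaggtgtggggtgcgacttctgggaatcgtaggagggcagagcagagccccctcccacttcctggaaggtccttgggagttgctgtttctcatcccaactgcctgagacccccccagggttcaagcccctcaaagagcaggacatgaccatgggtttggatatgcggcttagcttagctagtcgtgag
Each window held 1 such match, and 45.4% of the central 300-base windows of 5143 peaks held at least 1. The GC-rich SMAD element GGCGCC, in 26.3% of those windows, and the homeobox core TAATTA, in 1.0%, were not among the letters of either window. Both strands were searched, and the motifs do not overlap each other in these windows. The windows were 68.7% (Bmp4) and 60.0% (Id2) G or C.

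In the wider list 14 of 48 genes had a peak within 3 kb. They were Acvr2b, Bambi, Bmp6, Bmper, Bmpr1b, Fst, Fstl1, Id4, Msx1, Rgma, Rgmb, Smad5, Tbx3 and Tob1. Among genes tested in iSLAM-seq these were 14 of 38, beside 19.8% of all genes tested there. Among genes tested in RNA-seq they were 12 of 28, beside 27.3% of all genes tested there. Of the genes with a peak, 5 of 12 tested in RNA-seq were called (Bmper, Fstl1, Rgma and Tob1 higher, Id4 lower), against 4 of 16 without a peak and 37.5% of all genes. At 0 h of iSLAM-seq, 3 of the 14 were called (Bmper and Fstl1 higher, Acvr2b lower), against 4 of 24 without a peak and 10.9% of all genes. Grem1, Nbl1 and Twsg1, the other antagonists higher at 0 h, had none.

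The 5 genes whose log2 differences at the 6 times lay closest to those of Bmp2 were sought among 12059 other genes with a mean of at least 5 CPM, by root mean square distance. They were Crct1 (distance 0.269), Nppc (0.271), S100a8 (0.304), Acpp (0.31) and Lce3a (0.327). None is on the pathway list, and the rule chose them for this profile. Crct1 and Lce3a had their largest difference at 4 h (2.78 and 2.68), as did Nppc (2.13), S100a8 (2.44) and Acpp (1.92).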

How the data were processed

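RNA-seq and iSLAM-seq values are raw read counts that the authors deposited, with genes in rows and libraries in columns, per the file headers. The submitters' processing notes name STAR 2.5.2b, Subread, featureCounts and DESeq2 with GRCm38, Bowtie2 2.2.5, SAMtools and HOMER with mm10, and limma 3.42.2. The strand setting of the counting is not given in the sources used here, nor whether reads without T-to-C conversions entered the iSLAM-seq counts. The peak table that the authors deposited holds a score for each merged peak and a signed distance in bases to a start site, per the file headers, and each peak lists the 3 RHOX10 libraries. Both were used only to describe peaks. IgG and empty-vector CUT&Tag libraries were not analysed here. The tables held 0 unused sample columns.

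Identifiers were matched to GENCODE M21 (55450 of 55536 had a symbol). The main test was edgeR 4.0.16 (R 4.3.3), quasi-likelihood and two-sided, after filterByExpr and TMM scaling, with Benjamini-Hochberg adjustment over all genes tested. RNA-seq was fitted by genotype, and iSLAM-seq by 12 groups with 24 libraries sharing 1 estimate of the spread. CPM use TMM-scaled library sizes. Each SE is the size of a log2 difference over the root of its F statistic. Members under the RNA-seq filter, and Rhox10, were compared by exact permutation. The fits were tested on simulated counts. The labels call the iSLAM-seq replicates biological. Sequences were read from the RefSeq GRCm38 genome.

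The members and all gene lists, germline genes included, were chosen with earlier results of these data known. Genes named beyond the 10 were Rhox10, up to 4 rises and 4 falls of largest absolute log2 fold change per tested comparison among wider genes called with a mean of at least 1 CPM, wider genes with a peak within 3 kb, and the 5 genes most like Bmp2. A gene of the wider list is not reported here and entered no count over that list. Fstl1 at 0 h, and Fstl1 and Tob1 in RNA-seq, and the marker genes named were singled out after their values were seen. Alternatives were DESeq2 1.42.0, other scalings, no low-count filter, a replicate block, leaving out each library, only the 4 libraries of a comparison, and other peak distances. Averaging over 1 to 8 h and leaving out 0.5 h were chosen after seeing the data.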

Additional observations from a re-analysis of the deposited data

Results flagged for a closer look

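Smad7 is listed because its difference between vectors changed with time (edgeR adjusted p = 0.00541 for the F-test of the change from 0 h). The log2 difference was 0.49 at 0 h, 0.79 at 1 h and -0.06 at 8 h.

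In RNA-seq, 20 groups of 4 libraries were searched for a single distant library, of which 1 is expected by chance, and 2 were found. Nog had 3 counts in wild-type replicate 1 and 0 in the other 3 wild-type libraries, so that the gap took up the whole range (ratio 1). Id3 stood at 5.13 CPM in null replicate 1 and at 6.19 to 6.36 CPM in the other 3 null libraries, a gap of 0.863 of the range.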

How the results depend on the processing

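Of 983 values of single genes under an alternative, 903 kept their side of the threshold and, except for 2, their direction, 39 passed only under the alternative, 20 only as reported, 3 moved by more than the spread and 18 reversed. The 2 were differences averaged over the induced times that moved by less than the spread, Id3 (0.024 without Ctrl 0.5 h replicate 1) and Bmpr1a (0.004 without Ctrl 8 h replicate 2). The cause of these differences was not tested. RNA-seq called 5071 genes, 7858 with library totals (92.0% higher against 49.7%), 11468 with germline factors (99.0% higher) and 2980 with DESeq2, and members called went from 3 to 6, 7 and 0. At 0 h, 2246 genes became 3764 without the 4 libraries at 0.5 h. The change from 0 h called 494 genes and 1 member, against 1002 and 4 with no filter, 835 and 3 with DESeq2, 1496 and 5 without the 4 libraries at 0.5 h, and 2 members with library totals. Ctrl 8 h minus 0 h called 1345 genes and 1 member, against 2187 and 2 with the 4 libraries compared alone, 2754 and 4 without the 4 libraries at 0.5 h, 3 members with library totals (48.4% of calls higher against 58.9%) or DESeq2, and 2 with no filter. Rhox10 8 h minus 0 h called 1482 genes, and 2740 without the 4 libraries at 0.5 h. Any annotated peak gave 3 members and a 10 kb limit 2, against 1 within 3 kb.

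Leaving out 1 library at a time gave 4468 to 4687 RNA-seq calls with 2 to 3 members, 1076 to 1327 calls at 0 h with 1 to 2, 6966 to 9035 averaged over the induced times, 552 to 622 for Ctrl 8 h minus 0 h with 1 to 2, and 724 to 914 for Rhox10 8 h minus 0 h with 2. The change from 0 h gave 314 to 4331 calls with 1 to 5 members, the highest without Ctrl 0.5 h replicate 1 (4331) and replicate 2 (1555). A lone library was taken to vary like the other groups. Scaling changed the sign of Bmpr1a (0.175 with library totals, 0.574 with germline factors) and Id3 (0.269 and 0.668) in RNA-seq. The median of all genes lay at 0.35 and 0.748 in these settings, and both genes stayed below it. Leaving out a library reversed some genes that were not called: Smad6 in RNA-seq (-0.142 and -0.051, range -0.142 to 0.118), Bmp4 (0.175 and 0.018, range -0.170 to 0.175) and Nog (-0.547 to 1.743) at 0 h, Bmp2 (-0.040 and -0.027, range -0.040 to 0.237) and Smad6 (-0.248 to 0.020) in Ctrl 8 h minus 0 h, and Bmpr1a (-0.040 and -0.006, range -0.040 to 0.071), Nog (1.240 and 0.294, range -1.523 to 1.240) and Id1 (0.013 and 0.167, range -0.363 to 0.167) in Rhox10 8 h minus 0 h.

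Same-numbered libraries did not deviate together (correlations of -0.019 to 0.014 in RNA-seq and -0.059 to 0.057 in iSLAM-seq), so the numbers do not pair the samples. The replicate block gave 5066 calls in RNA-seq, 2314 at 0 h, 7687 averaged over the induced times, 502 for the change from 0 h, 1505 for Rhox10 8 h minus 0 h and 1339 for Ctrl 8 h minus 0 h, where 3 members passed, Bmpr2 and Id2 being added to Id3. With 0 to 16 counts per library, RNA-seq gives little precision for Bmp2, Bmp4 and Nog.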
